A study of Mus musculus with 2 samples.

Results

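The genes described here are 10 signalling genes of inflammation, taken by symbol from a fixed list: the cytokines Il1b, Tnf, Il6, Il18 and Osm, the interleukin-1 antagonists Il1rn and Il1r2, the CSF1 receptor ligands Csf1 and Il34, and the suppressive cytokine Il10. All 10 were found among the 32285 genes of the count tables. Both samples were kidneys of 9-week-old male C57BL/6 mice that underwent bilateral renal ischemia of 27 min and were studied at 24 h. One mouse received JPI-289, an inhibitor of poly (ADP-ribose) polymerase, at 100 mg/kg into the peritoneal cavity immediately before reperfusion, and the control mouse received saline (n = 1 each). Single-cell libraries of the kidney suspensions were made with a 5′ kit, which counts transcripts as unique molecular identifiers (UMIs). With 1 library per condition, the values compare these 2 libraries, no test between conditions was possible, and every interval below is a 95% interval that covers counting error only.

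Interleukin-1β and TNF are released by activated leukocytes and drive inflammation in the postischemic kidney. IL-1RA, the product of Il1rn, blocks the interleukin-1 receptor, and IL-1R2, the product of Il1r2, binds interleukin-1 without signalling. CSF1 and IL-34 both act on the CSF1 receptor of macrophages, and IL-10 restrains macrophage activation. On GRCm38, GENCODE vM21 places Il1b at chr2:129364570-129371139 (minus strand), Il1rn at chr2:24336853-24351494 (plus strand) and Il1r2 at chr1:40074079-40125231 (plus strand). It places Tnf at chr17:35199381-35202007 (minus strand), Il6 at chr5:30013114-30019981 (plus strand), Il18 at chr9:50554827-50581840 (plus strand) and Osm at chr11:4236420-4241026 (plus strand), and Csf1 at chr3:107741048-107760469 (minus strand), Il34 at chr8:110741829-110805924 (minus strand) and Il10 at chr1:131019845-131024974 (plus strand).

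The control library held 38328760 UMIs and 3688 cells, and the JPI-289 library held 35548396 UMIs and 4980 cells, with medians of 2103 and 1890.5 UMIs per cell. The cells called in both libraries shared 23 barcodes. Cell classes were rebuilt from marker lists and are called by the class their markers match. Every cluster of proximal tubule (PT)-like cells came mostly from 1 library, as did an endothelial (EC)-like cluster of 1 control and 183 JPI-289 cells. With 1 mouse and 1 library per condition, treatment, mouse and library cannot be told apart in these or any other clusters. The doublet caller marked 2 of 8668 cells and did not work here. Neutrophil-like cells made up 5.31% (4.61 to 6.09, exact Clopper-Pearson) of control cells, with 196 cells, and 13.1% (12.1 to 14.0) of those given JPI-289, with 651 cells. All 10 neutrophil markers were detected in both.

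Over all cells, Il1b, Il1r2, Tnf, Il34, Csf1 and Il10 were higher in the JPI-289 library, Il6 and Il18 were lower, and Il1rn and Osm differed by less than their counting error. Il1b had 6654 UMIs in control and 11772 in JPI-289 cells, or 399.8 and 660.9 counts per 1e+06 UMIs (CPM), a log2 ratio of 0.73 (0.68 to 0.77). Il1r2 had 2877 and 9976 UMIs (log2 ratio 1.70, 1.64 to 1.76), and Tnf had 646 and 2067 (1.58, 1.45 to 1.71). These 3 genes are made mainly by leukocytes. Il34 had 527 and 1519 UMIs (1.43, 1.29 to 1.58), and Csf1 had 365 and 699 (0.84, 0.66 to 1.03). With cells called by total UMIs alone, the log2 ratios were 2.28 for Il1r2 and 0.18 for Csf1. Il10 had 2 UMIs in control and 36 in JPI-289 cells, and Il6 had 78 and 29 (-1.51, -2.19 to -0.89). Il18, which encodes an interleukin-1 family cytokine, had 77 and 44 UMIs (-0.90, -1.47 to -0.35). Il1rn had 447 and 484 UMIs (0.02, -0.17 to 0.21), and Osm, a cytokine of the IL-6 family, had 363 and 388 (0.00, -0.21 to 0.21).

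Of the 10 genes, 4 were at least 2-fold higher (Il1r2, Tnf, Il34 and Il10) and 1 was at least 2-fold lower (Il6). Of the 14529 genes with at least 20 UMIs, 5.66% were that much higher and 21.0% that much lower, and their median log2 ratio was -0.22, against 0.78 for the 10 genes. In a list of 31 receptors, processing genes and related ligands, 5 of 29 with 20 UMIs were 2-fold higher and 5 lower, with a median of 0.01. Both lists were chosen with earlier results of these data known, so neither contrast with all genes is independent of these data.

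Some of these differences changed direction without neutrophil-like cells. In that alternative, added after the data were seen, Il1b was lower in the JPI-289 library (log2 ratio -0.41), as were Tnf (-0.67), Csf1 (-0.81), Il1rn (-1.90) and Osm (-0.80), and Il1r2 remained higher (1.17). In such sums, more cells of a type and more RNA per cell cannot be told apart.

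**Figure D1:**
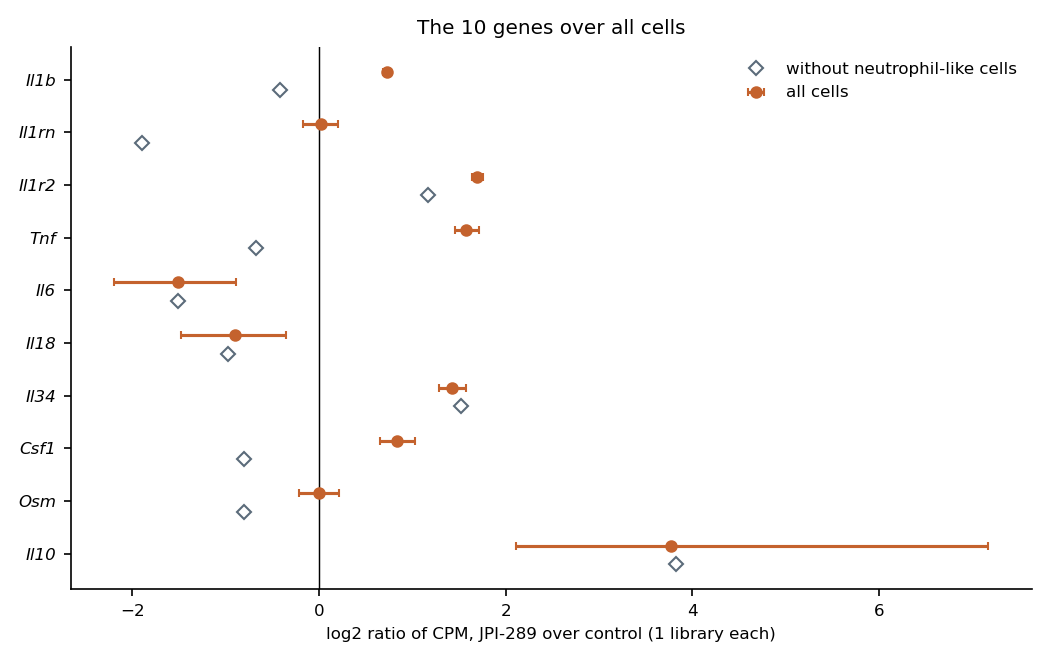
Log2 ratio of CPM of JPI-289 over control for each gene, 1 library each. Filled circles are all cells with their 95% counting interval and open diamonds are all cells but the neutrophil-like ones. Il1b, Tnf and Csf1 lie above 0 with neutrophil-like cells and below 0 without them.

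The UMIs of Il1b lay almost wholly in leukocyte-like cells. Neutrophil-like cells held 57.4% of the Il1b UMIs of control cells and 82.0% of those of JPI-289 cells. The same class held 47.7% and 89.7% of Tnf, 72.4% and 82.1% of Il1r2, 61.3% and 90.5% of Il1rn, and 20.3% and 76.3% of Csf1. Il34 lay in the tubule, with 47.2% and 58.0% of its UMIs in PT-like cells and 22.2% and 19.6% in cells like those of the thick ascending limb (TAL). Most of the rest lay in unnamed clusters led by Slc14a2, with 20.5% and 7.97%, and by Neat1, with 0.76% and 8.76%. Of the Il6 UMIs, stroma-like cells held 61.5% with saline and 17.2% with JPI-289, EC-like cells 29.5% and 31.0%, and C1q macrophage-like cells 1.28% and 27.6%.

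**Figure D2:**
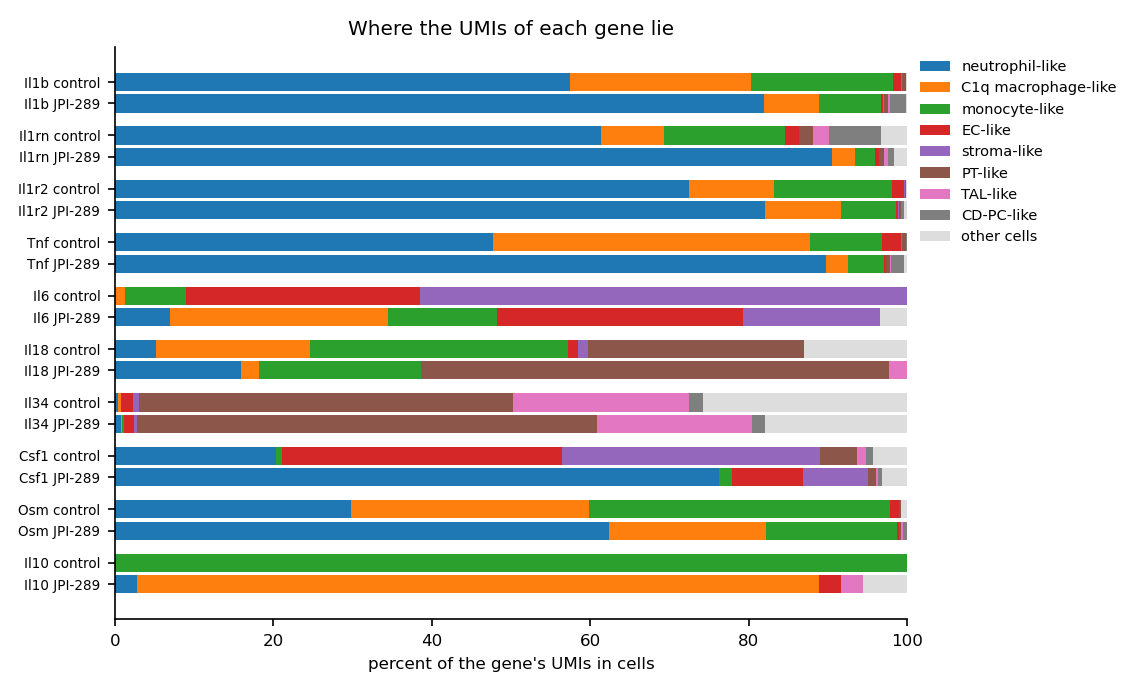
Percent of each gene's UMIs in cells by cell class, with the control bar above the JPI-289 bar. The neutrophil-like share of Il1b, Il1rn, Il1r2, Tnf, Csf1 and Osm is larger in the JPI-289 library, and PT-like and TAL-like cells hold the larger part of Il34 in both.

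The 250 bases before the start are shown for 4 of these genes, the cytokines Il1b, Tnf and Il6 and the CSF1 receptor ligand Csf1. They are from a set of RefSeq windows on GRCm38.p6, and the set used here held such a window for 7 of the 10 genes. Capitals mark matches, on either strand, to the NF-kB consensus, AP-1 (TGANTCA), PU.1 (GAGGAA), C/EBP (TTGCNNAA) or the TATA box (TATAAA). The TATA box was added to the search after the windows were seen.
Il1b, chr2:129371140-129371389, minus strand: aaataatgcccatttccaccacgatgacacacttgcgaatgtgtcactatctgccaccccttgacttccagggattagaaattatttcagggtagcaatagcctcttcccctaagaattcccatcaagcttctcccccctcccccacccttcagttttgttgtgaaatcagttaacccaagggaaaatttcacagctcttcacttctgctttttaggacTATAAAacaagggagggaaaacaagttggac
Tnf, chr17:35202008-35202257, minus strand: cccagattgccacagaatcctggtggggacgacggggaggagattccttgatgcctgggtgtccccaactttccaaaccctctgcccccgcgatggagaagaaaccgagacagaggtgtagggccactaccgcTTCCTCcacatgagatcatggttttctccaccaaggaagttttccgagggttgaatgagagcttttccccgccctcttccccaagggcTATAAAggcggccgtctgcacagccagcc
Csf1, chr3:107760470-107760719, minus strand: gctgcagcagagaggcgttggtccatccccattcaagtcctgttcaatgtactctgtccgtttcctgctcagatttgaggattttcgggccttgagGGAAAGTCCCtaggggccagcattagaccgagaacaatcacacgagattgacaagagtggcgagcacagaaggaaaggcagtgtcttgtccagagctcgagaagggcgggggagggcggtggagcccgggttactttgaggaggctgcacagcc
Il6, chr5:30012864-30013113, plus strand: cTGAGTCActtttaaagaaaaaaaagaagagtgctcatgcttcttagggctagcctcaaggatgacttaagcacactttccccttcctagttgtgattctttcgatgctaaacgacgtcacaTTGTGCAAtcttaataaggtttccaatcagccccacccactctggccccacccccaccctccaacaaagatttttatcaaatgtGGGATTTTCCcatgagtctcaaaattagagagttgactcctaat
The windows of Il1b and Tnf hold a TATA box, at 31 to 26 and 29 to 24 bases before the start, and 12.4% of all 32851 windows hold one. Csf1 and Il6 hold the NF-kB consensus, as do 7.25% of windows. Tnf holds the PU.1 motif, found in 23.3% of windows, and Il6 holds AP-1 and C/EBP motifs, found in 6.75% and 9.56%. Of the windows not shown, that of Il1r2 held no match and that of Il18 a TATA box match at 175 to 170 bases before the start. For Il1rn, window 1 held an AP-1 match and windows 2 and 3 held none. Such matches describe letters and not binding.

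Within neutrophil-like cells, Tnf and Csf1 were higher and Il1b, Il1rn and Osm were lower in the JPI-289 library. Il1b, the most abundant agonist, had 3821 UMIs (8784 CPM, 8508 to 9067) in control and 9648 UMIs (5994 CPM, 5875 to 6115) in JPI-289 cells, a log2 ratio of -0.55 (-0.61 to -0.50). With cells called by total UMIs alone the ratio was -0.11. Tnf had 308 UMIs (708.1 CPM) and 1855 UMIs (1152 CPM), a log2 ratio of 0.70 (0.53 to 0.88). Csf1, the growth factor of macrophages, had 74 UMIs (170.1 CPM) and 533 UMIs (331.1 CPM), a log2 ratio of 0.95 (0.61 to 1.33), which was 0.13 with cells called by total UMIs alone. Osm had 108 and 242 UMIs (-0.73, -1.06 to -0.38), and the 5 cells with most Osm held 42.6% and 16.5% of it. Il18, Il34, Il10 and Il6 had at most 12 UMIs each in either library.

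The antagonist and the decoy receptor differed in these cells. Il1rn had 274 UMIs (629.9 CPM) in control and 438 UMIs (272.1 CPM) in JPI-289 neutrophil-like cells (-1.21, -1.43 to -0.99). Il1r2 had 2083 UMIs (4789 CPM) and 8187 UMIs (5086 CPM), a log2 ratio of 0.09 (0.02 to 0.16) that turned to -0.02 when centred on the median of all genes. Only Il1rn of the 6 genes with 20 UMIs was past 2-fold, in the lower direction, against 11.5% of all genes higher and 10.5% lower. Of the 18 related genes, 1 was past 2-fold, namely Casp4, an inflammatory caspase, with 25 and 30 UMIs (-1.63). Leaving out the neutrophil-like cluster of 34 JPI-289 cells gave -0.52 for Il1b, 0.74 for Tnf and 0.99 for Csf1.

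At an equal depth of 1000 UMIs, an Il1b UMI was found in 89.3% (83.7 to 93.4) of 177 neutrophil-like cells of the control and in 82.8% (79.5 to 85.8) of 581 of the JPI-289 library, with 92.9% and 84.9% before thinning. For Tnf the shares were 32.2% (25.4 to 39.6) and 42.2% (38.1 to 46.3), with 43.4% and 52.8% before thinning. Il1rn was detected in 30.5% (23.8 to 37.9) and 17.4% (14.4 to 20.7), with 44.4% and 29.5% before thinning. For Osm the shares lay close, at 14.1% (9.35 to 20.1) and 11.9% (9.36 to 14.8), with 18.9% and 17.5% before thinning. In red blood-like cells, which should lack these genes, no thinned cell of 56 control and 93 JPI-289 cells had a UMI of Il1b, Tnf or Il1r2, which allows shares of up to 5.36% and 3.23% by the limit of 3 counts and 6.38% and 3.89% by the exact Clopper-Pearson interval. Before thinning, Il1b was found in 0 of 75 control and 3 of 123 JPI-289 cells of this class, 2.44% of the latter, and Il1r2 in 0 and 1. The median depths were 1973 and 2037 UMIs in neutrophil-like cells and 1526 and 1531 in red blood-like cells.

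**Figure D3:**
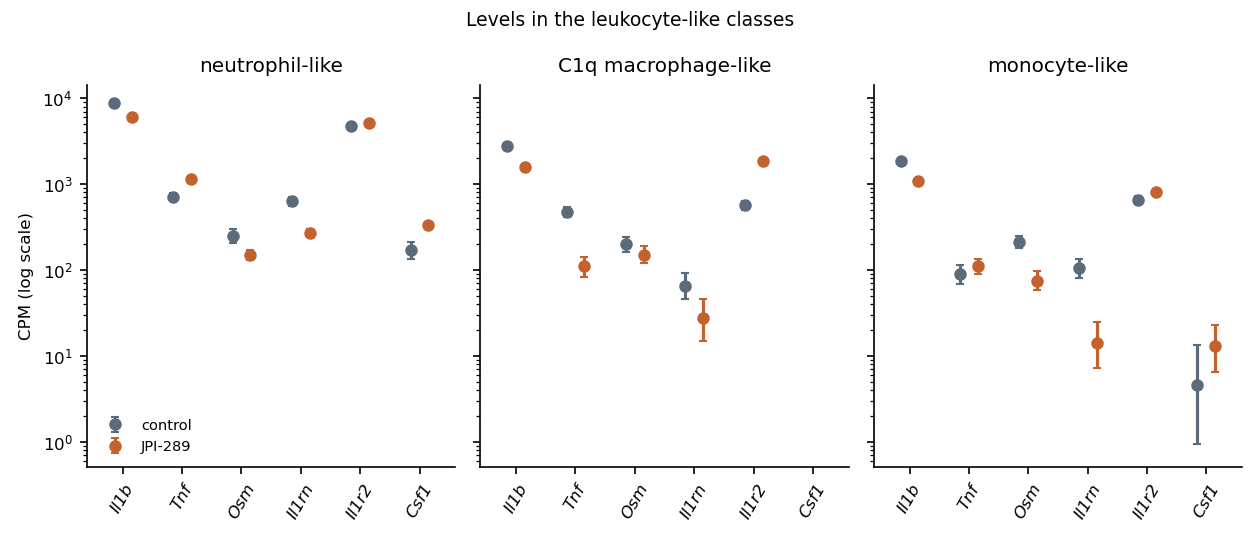
Level of 6 genes, as CPM on a log axis, in 3 leukocyte-like classes, with circles for the 2 libraries and bars for the 95% Poisson interval. A gene without UMIs in a library has no point. Il1b and Il1rn are lower in the JPI-289 library in each class shown, and Il1r2 lies close in neutrophil-like cells (log2 ratio 0.09) and higher in C1q macrophage-like cells (1.72).

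In C1q macrophage-like cells Tnf was lower in the JPI-289 library, in the direction opposite to that of neutrophil-like cells, while Il1r2 and Il10 were higher. Tnf had 259 UMIs (473.9 CPM, 418 to 535.3) in 129 control cells and 56 UMIs (110.1 CPM, 83.2 to 143) in 158 JPI-289 cells, a log2 ratio of -2.10 (-2.55 to -1.68), and -1.26 with the classes of resolution 0.5. The 5 cells with most Tnf held 51.4% and 58.9% of it. Il1b had 1521 and 809 UMIs (-0.81, -0.93 to -0.68). At equal depth it was detected in 46.3% (36.0 to 56.8) and 33.6% (25.7 to 42.2) of cells, with overlapping intervals. Il1r2 had 310 and 952 UMIs (1.72, 1.54 to 1.91), or 0.98 at resolution 0.5, and at equal depth it was detected in 34.7% (25.3 to 45.2) of 95 and 67.9% (59.3 to 75.7) of 134 cells, with 51.2% and 75.9% before thinning. Il10 had no UMI in control and 31 UMIs in 13 JPI-289 cells, at least 11.1-fold higher when a floor of 3 counts over all control cells of the class stands for the 0. The lower 95% limit of its log2 ratio, which also takes in the counting error of the 31, was 3.09, and the 5 cells with most Il10 held 67.7% of it. Il1rn had 36 and 14 UMIs (-1.23, -2.26 to -0.33), Osm 109 and 77 (-0.40, -0.84 to 0.04), Il18 15 and 1, Il6 1 and 8 (2.61, 0.20 to 8.58) and Il34 2 and 1, and Csf1 had none. The 8 markers of this class, all detected, summed to 14226 CPM in the control and 7274 CPM in the JPI-289 cells, their median depths were 4052 and 2919.5 UMIs, and free RNA was estimated at 6.33 to 21.0% and 9.14 to 45.1% of their UMIs. All 10 neutrophil markers together had 128 UMIs (234.2 CPM) and 230 UMIs (452.2 CPM), with 7 of the 10 detected in each library, and S100a8 had 9 and 77. Without S100a8 and S100a9, the other neutrophil markers went the other way, with 119 UMIs in control and 74 in JPI-289 cells. The part of these differences in the values above was not tested.

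Of the 6 genes with 20 UMIs in these cells, 2 were 2-fold higher (Il1r2 and Il10) and 2 lower (Il1rn and Tnf), against 10.7% and 17.5% of all genes. Among the related genes, Pycard, the inflammasome adaptor, had 145 and 27 UMIs (-2.30), Il10rb, a chain of the IL-10 receptor, had 117 and 33 (-1.71), and Tnfaip3, a brake on NF-kB, had 162 and 311 (1.04). These were not particular to this class for Pycard and Il10rb. Pycard was also lower in PT-like (90 and 10, -2.97), TAL-like (47 and 10, -2.64) and collecting duct principal-like cells (182 and 57, -2.12). Il10rb was also lower in EC-like cells (312 and 80, -1.76). Tnfaip3 was lower in PT-like cells (34 and 7, -2.06).

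In monocyte-like cells Il1b, Il1rn, Osm and Il18 were lower in the JPI-289 library. Il1b had 1192 and 919 UMIs (-0.76, -0.89 to -0.64), Il1rn had 68 and 12 (-2.84, -3.91 to -1.99), Osm had 138 and 64 (-1.49, -1.95 to -1.06) and Il18 had 25 and 9 (-1.81, -3.15 to -0.72). Il1r2 had 427 and 697 UMIs (0.32, 0.14 to 0.50), a ratio that turned to -0.06 with each cell at equal weight. Tnf had 58 and 94 UMIs (0.30, -0.18 to 0.81), and Csf1, Il34, Il6 and Il10 had at most 11 each in either library. Of 6 genes with 20 UMIs, 3 were 2-fold lower (Il1rn, Il18 and Osm) and 0 higher, against 12.5% and 10.5% of all genes. The 5 cells with most Il1rn held 70.6% and 83.3% of it, and those with most Il18 held 68.0% and 66.7%. For Osm, the control share was 44.9%. At equal depth, Il1b was detected in 47.1% (34.8 to 59.6) of 68 and 32.3% (24.5 to 41.0) of 133 cells. The shares were 8.82% (3.31 to 18.2) and 1.50% (0.18 to 5.33) for Il1rn and 14.7% (7.28 to 25.4) and 8.27% (4.20 to 14.3) for Osm. For these genes the intervals of the libraries overlapped. Il18 was found in 2 and 0 of the thinned cells. RNA of neutrophils, scaled by their markers, would give 115 to 165 of the 1192 control and 106 to 132 of the 919 JPI-289 Il1b UMIs here. For Il1rn it would give 8.27 to 11.8 of the 68 and 4.79 to 5.98 of the 12. The neutrophil markers had 2442 and 2666 UMIs in these cells, but 347 and 260 without S100a8 and S100a9. An estimate without those 2 genes was not computed. The 8 markers of this class summed to 9145 and 5004 CPM, and the median depths were 8660 and 5962 UMIs. Their part in the values above was not tested. Il1a, an interleukin-1 agonist, had 9 and 93 UMIs (2.91), and Csf1r, the receptor of Csf1 and Il34, had 298 and 150 (-1.38).

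Per Il1b, Il1rn was lower and Il1r2 higher in the JPI-289 library. Neutrophil-like cells held 7.17 (6.32 to 8.11) Il1rn UMIs per 100 Il1b UMIs in the control and 4.54 (4.1 to 5.0) in the JPI-289 library. The values were 5.70 (4.4 to 7.3) and 1.31 (0.67 to 2.29) in monocyte-like cells, and 2.37 (1.65 to 3.29) and 1.73 (0.94 to 2.92), with overlapping intervals, in C1q macrophage-like cells. Il1r2 per 100 Il1b UMIs was 54.5 (51.7 to 57.5) and 84.9 (82.4 to 87.4) in neutrophil-like, 20.4 (18 to 23) and 117.7 (107.0 to 129.4) in C1q macrophage-like and 35.8 (32.0 to 40.0) and 75.8 (68.6 to 83.8) in monocyte-like cells.

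**Figure D4:**
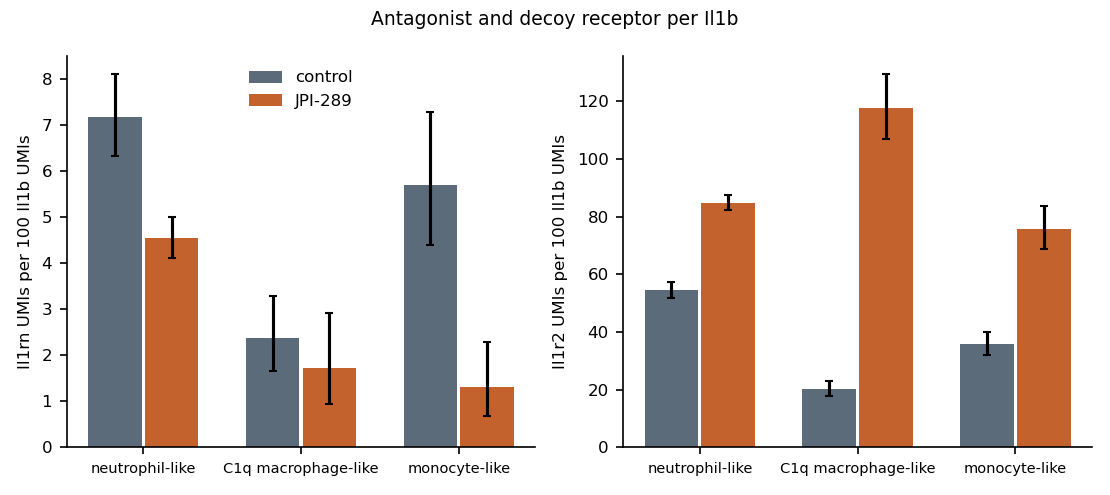
UMIs of Il1rn (left) and Il1r2 (right) per 100 UMIs of Il1b in 3 leukocyte-like classes, as bars for the 2 libraries with 95% binomial intervals. Il1r2 per Il1b is higher in the JPI-289 library in all 3 classes.

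Il34 differed in tubular cells. PT-like cells had 249 UMIs (30.9 CPM, 27.2 to 35.0) in the control and 881 UMIs (120.5 CPM, 112.6 to 128.7) with JPI-289, so that the log2 ratio was 1.96 (1.76 to 2.17). The list of 6 markers of injured PT, all detected in both libraries, summed to 287.7 and 1372 CPM in these cells. Krt20 had 39.8 and 731.6 CPM, and Havcr1, the kidney injury molecule, had 115.0 and 453.6. Sox9 had 47.5 and 115.7 CPM and Krt18 13.9 and 26.0. Clu, with 69.4 and 45.0 CPM, and Vcam1, with 2.11 and 0.27, were lower in the JPI-289 library. By cluster, Havcr1 had 41.0, 46.5, 65.1 and 379.9 CPM in the 4 clusters with most control cells and 183.3, 272.6 and 710.7 CPM in the 3 with most JPI-289 cells, and its part in the Il34 difference was not tested. At equal depth 3.33% (2.43 to 4.45) of 1320 and 11.5% (9.73 to 13.5) of 1127 PT-like cells had a UMI, with 10.4% and 29.3% before thinning. TAL-like cells had 117 and 297 UMIs (0.87, 0.56 to 1.20) and formed a cluster of both libraries, with 273 and 395 cells. Of the clusters left unnamed, one led by Slc14a2 had 108 and 121 Il34 UMIs (173.4 and 257.9 CPM; log2 ratio 0.57, 0.19 to 0.96) and one led by Neat1 had 4 and 133 (1.97, 0.75 to 4.04). In the PT-like clusters, the 4 with most control cells had 22.0 to 53.9 CPM and the 3 with most JPI-289 cells 95.2 to 141.5 CPM. In the cluster led by Plin2, the PT-like cluster with at least 20 cells of each library, 23 control cells had 2 UMIs (76.3 CPM, 9.24 to 275.7) and 819 JPI-289 cells had 134 UMIs (95.2 CPM, 79.8 to 112.7), so that the intervals overlapped. Among the related genes, Osmr, the receptor of oncostatin M, had 8 and 82 UMIs in PT-like cells (3.42). Of the 5 genes with 20 UMIs in PT-like cells, 2 were 2-fold higher (Il34 and Il1r2) and 1 lower (Csf1), against 8.95% and 23.6% of all genes. Il1r2, with 5 and 21 UMIs, and Il1b, with 35 and 58, were under the 34.2 to 51.5 and the 119 to 179 UMIs that free RNA would give PT-like cells of either library.

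**Figure D5:**
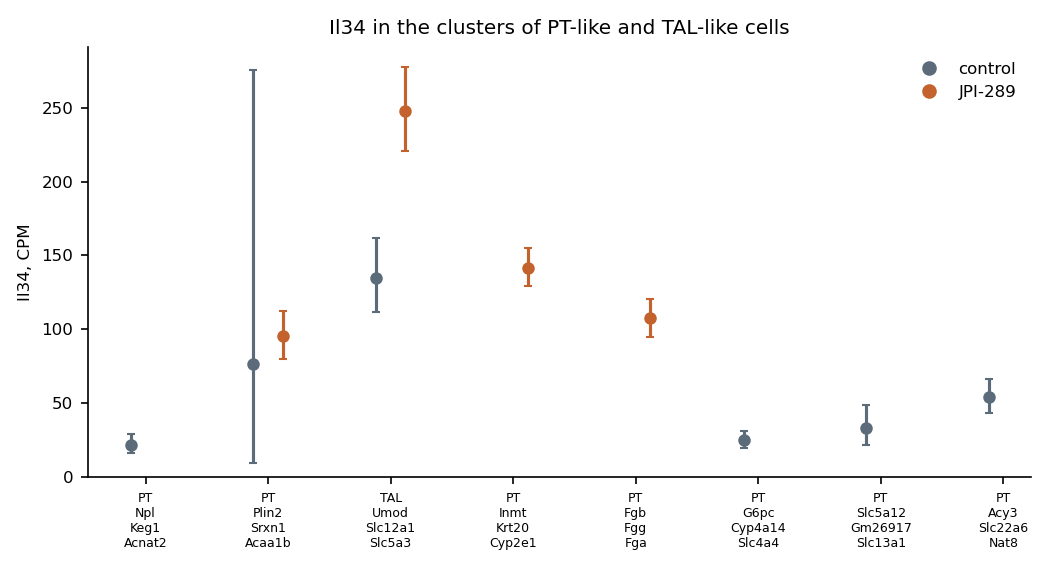
Level of Il34 as CPM in each PT-like and TAL-like cluster, named by its 3 leading genes, with 95% Poisson intervals. A library with under 20 cells in a cluster is not drawn. The points of JPI-289 PT-like cells lie above those of control PT-like cells, and in the Plin2-led cluster, drawn for both libraries, the intervals overlap.

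In EC-like cells Csf1 had 129 UMIs (65.8 CPM) in the control and 63 UMIs (36.9 CPM) in the JPI-289 library (-0.83, -1.30 to -0.39). By cluster, the levels were 88.0 (69.5 to 110.0) and 56.9 CPM (40.4 to 77.7) in 293 control and 351 JPI-289 cells. They were 48.0 (35.9 to 63.0) and 28.2 CPM (12.9 to 53.5) in 200 and 33 cells, and the intervals overlapped in each cluster. Separate intervals can overlap where the interval of the ratio leaves out 0, and the latter is not given by cluster. The EC-like cluster of 1 control and 183 JPI-289 cells had 21.3 CPM with JPI-289. In stroma-like cells Csf1 had 119 and 57 UMIs, with nearly equal levels of 137.9 and 135.8 CPM (-0.02, -0.50 to 0.45). Il6 had 48 UMIs in stroma-like control and 5 in JPI-289 cells (-2.10, -3.91 to -0.90), and 66.7% of the 48 came from 5 cells. Il6 had 23 and 9 UMIs in EC-like cells (-1.11, -2.45 to 0.01). Of the genes with 20 UMIs, Il34 was 2-fold higher and Il6 2-fold lower of 6 in EC-like cells, against 5.16% and 18.5% of all genes, and Il6 was lower and 0 higher of 2 in stroma-like cells, against 13.7% and 11.3%. The 70 and 41 Il1b UMIs of EC-like cells were fewer than the 91 to 124 and 113 to 181 that free RNA would give, and the 8 and 19 Il34 UMIs there stood beside 8.24 to 11.1 and 18.3 to 29.5. These Il1b UMIs were not spread evenly. The 5 EC-like cells with most Il1b held 84.3% and 92.7% of it, and 1 control cell held 52 of the 70.

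Cells like collecting duct principal cells had 0 Il1b UMIs among 82 control cells and 234 UMIs in 155 of 384 JPI-289 cells, at least 56.9-fold higher against the same floor, with a lower 95% limit of 5.52 on the log2 ratio. With cells called by total UMIs alone the log2 ratio was 2.37. The median depth of this class was 9104.5 UMIs in control and 1542 in JPI-289 cells, so the ratio sets cells of unlike depth side by side. A finer clustering placed 232 of the 234 in 293 JPI-289 cells with a median of 1450 UMIs. Those cells also held 725 UMIs of the 10 neutrophil markers. Among these were 344 of S100a9, 245 of S100a8, 73 of Retnlg, 8 of Cxcr2, 2 of Csf3r and none of Ly6g. In a deeper cluster, 89 JPI-289 cells with a median of 9315 UMIs held 2 Il1b UMIs. The same cluster held 72 of the 82 control cells, with a median of 9910.5 UMIs and 0 Il1b UMIs. The shallower cells also held all 37 Il1r2 UMIs of this class and 32 of its 34 Tnf UMIs. Of the 29 Il1rn UMIs of the control cells, 26 came from 1 cell, and Il34 had 9 and 26 UMIs in this class. Free RNA would give 38.6 to 55.1 and neutrophil RNA 36.3 to 38.4 of the 234. Whether these UMIs come from the cells or from neutrophil RNA beside them was not tested.

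Across the 28 class-by-library sums, which share their libraries and depth, the gene most alike to Il1b was Alox5ap (r = 0.97), to Tnf Clec5a (0.98), to Osm C5ar1 (0.99), to Il1r2 Arhgap45 (0.98), to Il1rn Rasgrp4 (0.95), to Csf1 Snai1 (0.90), to Il6 Emilin1 (0.88), to Il18 Aldh3b1 (0.88) and to Il34 Pax8 (0.80), of 11678 genes compared.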

How the data were processed

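Per the labels and the study's methods, the authors made both libraries with a Chromium 5′ v2 kit, sequenced them on a HiSeq2500 and aligned them to mm10 with Cell Ranger. The submitters' processing notes name version 5.0.1, and the header of the matrix names Cell Ranger 4. The deposited counts are unnormalized UMI numbers of each gene in all barcodes, before any cell calling.

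Cells were called on total UMIs. Smaller barcodes, down to 500 UMIs, were added where they differed from empty droplets (10000 simulations, false discovery rate 0.01). Cells with over 50% mitochondrial UMIs were left out, 533 control and 386 JPI-289 cells. Leiden clustering (resolution 1, 2000 variable genes without the genes described, 30 components, 20 neighbours) used scanpy 1.11.5 and leidenalg 0.10.2 in Python 3.11.15. Clusters were named from marker lists by a rule set after the clusters were seen. UMIs were summed per class and library, 0.5 UMI was added for log2 ratios, and intervals were exact (scipy 1.17.1). Classes with under 20 cells in a library were not compared.

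Free RNA was taken from barcodes under 100 UMIs and scaled by markers foreign to a class. The first version summed those markers and gave up to 45.1% free RNA in C1q macrophage-like cells of the JPI-289 library. A median over the markers, which gave 9.14%, was added after those values were seen. Both are given as a range, and so is the RNA of neutrophils, scaled in the same 2 ways by neutrophil markers. Where a class held fewer UMIs of a gene than free RNA would give, the estimate was too high for that gene and class. The code for cell calling, thinning, the counting intervals and the scaling of free RNA was tested on simulated data. That for clustering, class naming, the estimate of neutrophil RNA and the comparison of alike genes was not. The counts simulated for the intervals were Poisson draws, and the foreign markers of the simulated cells came only from free RNA. The simulation therefore cannot show that the intervals or the free RNA estimates hold in the real data.

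Any of the 10 genes could be named in every class compared, and most values resting on a few UMIs are left out. Of 31 related genes matched from a list of 32, those with at least 20 UMIs and furthest from a ratio of 0 could be named, up to 3 in each direction per class, and for each of the 10 genes with at least 100 UMIs the 3 genes with the most alike pattern (Pearson correlation of log2(CPM + 10)). The genes and lists were chosen with earlier results of these data known. Positions are those of RefSeq windows on GRCm38.p6, the assembly also called mm10.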

Additional observations from a re-analysis of the deposited data

Results flagged for a closer look

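Barcodes outside the cells also held more of 5 genes in the JPI-289 library. Of these barcodes, only those under 100 UMIs were used above, for the estimate of free RNA. The rest include the 533 control and 386 JPI-289 cells left out for mitochondrial UMIs. They come from the same 2 suspensions, and the share of all genes that were higher there was not computed. The log2 ratios were 0.60 for Il1b (1061 and 1318 UMIs), 1.74 for Il1r2 (235 and 645), 1.54 for Tnf (52 and 124) and 1.51 for Il34 (526 and 1226). Outside cells Il10 had 0 UMIs with saline and 5 with JPI-289, with a log2 ratio of 3.75 that rests on the 0.5 UMI added. The other genes differed there by less than their counting error. The ratios were 0.14 (-0.29 to 0.56) for Csf1, which was 0.84 over all cells, and 0.45 (-1.09 to 2.03) for Il6, which was -1.51. They were 0.15 for Il1rn, -0.49 for Il18 and -0.54 for Osm.

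Among classes where a gene had at least 20 UMIs in all and over 3 in each library, 3 genes differed between the libraries in opposite directions in a pair of cell classes, beyond counting error in each. The difference between the classes was not tested. The share of all genes that pass the same rule was not computed, so the count of 3 has no background beside it. Il6, lower in stroma-like cells (-2.10) and, with 1 and 8 UMIs, higher in C1q macrophage-like cells (2.61), fell under that limit. For Tnf the log2 ratio in neutrophil-like cells, 0.70, minus that in C1q macrophage-like cells, -2.10, was 2.80. For Csf1 the ratio in neutrophil-like cells, 0.95, minus that in EC-like cells, -0.83, was 1.78. Within the EC-like clusters with at least 20 cells of each library, Csf1 was lower in the JPI-289 library. The separate intervals of the libraries overlapped there, which does not give the interval of the ratio. For Il1b the ratio in TAL-like cells, 1.79, minus that in C1q macrophage-like cells, -0.81, was 2.60. The 4 and 21 UMIs of TAL-like cells were under the 16 to 36 and 30 to 37 that free RNA would give, and 12 of the 21 came from 1 cell.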

How the results depend on the processing

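No paired analysis was possible because each condition had 1 library and no test was made. Counting intervals leave out the spread between mice, which 1 library per condition cannot give, and genes with few UMIs (Il6, Il18 and Il10) have wide ones.

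Over all cells, 106 of 130 alternative values stayed within the counting interval of the value reported. Without neutrophil-like cells Il1b (-0.41), Tnf (-0.67) and Csf1 (-0.81) changed direction, and Il1rn (-1.90), Il1r2 (1.17) and Osm (-0.80) moved. Centred on the median of all genes, the log2 ratios were 0.94 for Il1b, 0.23 for Il1rn, 1.91 for Il1r2, 1.80 for Tnf, 1.65 for Il34, 1.06 for Csf1 and 0.22 for Osm. With each cell at equal weight they were 0.57 for Il1b, 1.30 for Il1r2, 1.29 for Csf1 and 0.22 for Osm. With cells called by total UMIs alone they were 0.79 for Il1b, 2.28 for Il1r2 and 0.18 for Csf1. Over all barcodes they were 0.87 for Il1b, 1.88 for Il1r2 and 1.76 for Tnf. With 1 CPM added, Il10 had 1.43. Within classes, 538 of 567 alternative values stayed within the interval, 27 moved and 2 changed direction: Il1r2 in monocyte-like cells with each cell at equal weight (-0.063) and Il1r2 in neutrophil-like cells when centred (-0.015). Of these alternatives, leaving out neutrophil-like cells, the JPI-289 neutrophil-like cluster or shared barcodes, the finer split of collecting duct cells and the median scaling of free RNA were chosen after seeing the data. The cause of these changes was not tested.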
